A study of Mus musculus with 21 samples.

Results

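The genes described are 10 that encode subunits, an inhibitor and partners of the calcium and calmodulin signalling system of excitatory synapses: Camk2a, Camk2b, Camk2g, Camk2n1, Camk4, Ppp3ca, Ppp3cb, Ppp3r1, Nrgn and Ddn. They were taken by mouse gene symbol from a count table of 64361 genes, and all 10 had rows and passed the filter on low counts in both tissues. The genes were chosen by their levels in the 4 groups of tissue by genotype, measured in these same libraries. Their differences between these groups are therefore given as sizes with standard errors (SE) and without p-values. Where calls of these genes are counted, the share of all genes is beside them and nothing is read from the counts.

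RNA was measured in cortex and hippocampus of GA-Camk2a and control mice with prime-seq, a bulk method that barcodes RNA early and counts transcripts at their 3' ends. GA-Camk2a mice carry a floxed transgene for GFP-tagged poly-GA, a dipeptide repeat protein translated from the expanded repeat of C9orf72 in amyotrophic lateral sclerosis. The transgene is switched on in excitatory neurons by a Camk2a-Cre driver, so that Camk2a is also the gene whose promoter drives the model. Mice of both groups were 30 to 40 weeks old by the labels, and the paper puts the humane endpoint of the transgenic animals at about 30 weeks. The line was kept on a C57BL/6J background. The controls are labelled only as ctrl, and the alleles they carry are not given in the labels. The 21 libraries came from 11 mice: 5 control and 6 GA-Camk2a cortices, and 4 control and 6 GA-Camk2a hippocampi, and 10 of the mice gave both tissues. Read from Xist and Ddx3y, 1 of 5 control and 2 of 6 GA-Camk2a mice were female.

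CaMKII is a multi-subunit kinase that is activated by calcium-loaded calmodulin and is among the most abundant proteins of the postsynaptic density of excitatory neurons. Calcineurin is the phosphatase that answers the same signal, made of a catalytic A subunit and a regulatory B subunit, and it opposes many effects of the kinase at the synapse and in the nucleus. Neurogranin holds calmodulin while calcium is low and so sets how much of it the enzymes can reach.

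Total counts per library ran from 1048201 to 5888102, and the deepest library was a control hippocampus. The smallest count of any of the 10 genes in any library was 15 (Camk4). Levels are given as CPM, the count of a gene scaled to a library total of 1000000. The count of GFP, the tag of the transgene, was 0 to 4 in every library of either genotype and so does not check the labels. The labelled tissues were checked with markers of hippocampus (Prox1, Zbtb20, Fibcd1, Spink8 and C1ql2): their summed level was 589 to 734 CPM in control hippocampus and 91.7 to 154 CPM in control cortex. The cortex library of control mouse 31, 1 of the female mice, was the highest control for 8 of the 10 genes and is named below where it matters.

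Promoter sequence was found for 4 of the 10 genes (Camk2b, Ppp3cb, Ppp3r1 and Nrgn) in the RefSeq table of build GRCm38.p6, as windows of 250 bases before and 50 bases after the start of each gene. The stretches before the start of Camk2b (chr11:6065749-6065998, minus strand), Ppp3cb (chr14:20546574-20546823, minus strand) and Ppp3r1 (chr11:17159048-17159262, plus strand) are printed 5' to 3' because these genes, a kinase subunit and both parts of calcineurin, were lower together in GA-Camk2a mice. The stretch of Ppp3r1 stops where a GENCODE transcript of the gene begins. Capitals mark 2 motifs searched on both strands, the half-site of the cAMP response element (TGACG or CGTCA) and the GC box (GGGCGG or CCGCCC).
Camk2b: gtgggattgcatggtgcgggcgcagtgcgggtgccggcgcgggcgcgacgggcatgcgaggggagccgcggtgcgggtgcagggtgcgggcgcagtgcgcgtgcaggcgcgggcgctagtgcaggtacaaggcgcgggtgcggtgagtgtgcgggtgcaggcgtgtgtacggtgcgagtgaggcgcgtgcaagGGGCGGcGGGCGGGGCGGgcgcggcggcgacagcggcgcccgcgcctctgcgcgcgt
Ppp3cb: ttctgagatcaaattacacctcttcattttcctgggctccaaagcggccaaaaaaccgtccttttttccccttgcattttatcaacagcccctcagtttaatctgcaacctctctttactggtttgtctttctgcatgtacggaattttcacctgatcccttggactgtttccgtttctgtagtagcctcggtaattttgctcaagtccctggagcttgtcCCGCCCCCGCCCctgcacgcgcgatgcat
Ppp3r1: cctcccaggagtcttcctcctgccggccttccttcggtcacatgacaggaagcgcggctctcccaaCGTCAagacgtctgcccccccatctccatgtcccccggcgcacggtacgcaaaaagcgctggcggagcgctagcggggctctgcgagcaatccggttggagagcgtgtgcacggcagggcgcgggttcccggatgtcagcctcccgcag
The printed stretch of Camk2b held 3 GC boxes, of which 2 share a base, and that of Ppp3cb held 2 side by side. The printed stretch of Ppp3r1 held 1 CRE half-site and no GC box. In the whole windows, 4 of 4 matched genes held a GC box, against 35.7% of the 32851 windows in the table, and 2 of 4 held a CRE half-site, against 20.8%. None of the 4 held the E-box CACGTG (7.15% of all windows) or the letters TATAAA (13.6%). These are matches of letters, and no binding was measured.

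In GA-Camk2a mice, the means of 9 of the 10 genes, all but Camk2g, were 51.0 to 73.4% of the control mean in cortex and 37.5 to 76.8% in hippocampus. The mean of Camk2g was 88.9% of the control mean in cortex and 118.6% in hippocampus. The largest differences were those of Ppp3ca in cortex (log2 fold change -0.96 ± 0.09, SE) and Ddn in hippocampus (-1.46 ± 0.09). The summed level of the 10 genes was 4079 ± 575 CPM (SD, n = 5) in control and 2501 ± 149.7 CPM (n = 6) in GA-Camk2a cortex. It was 4604 ± 366 CPM (n = 4) in control and 2590.1 ± 194 CPM (n = 6) in GA-Camk2a hippocampus. By edgeR's quasi-likelihood test with batch as a term, 9 of 10 passed an adjusted p of 0.05 as lower in each tissue, where 6.17% of all genes tested passed as lower in cortex and 5.97% in hippocampus. None of the 10 passed as higher, which 6.35% and 4.97% of all genes did, and over either direction 12.5% and 10.9% of all genes passed. Since the genes were chosen with these levels known, nothing is read from these counts. The median log2 fold change of the 10 genes was -0.64 in cortex and -0.78 in hippocampus, against -0.01 and 0.02 over all genes tested. In bulk tissue, fewer cells of a type and less RNA per cell cannot be told apart.

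**Figure D1:**
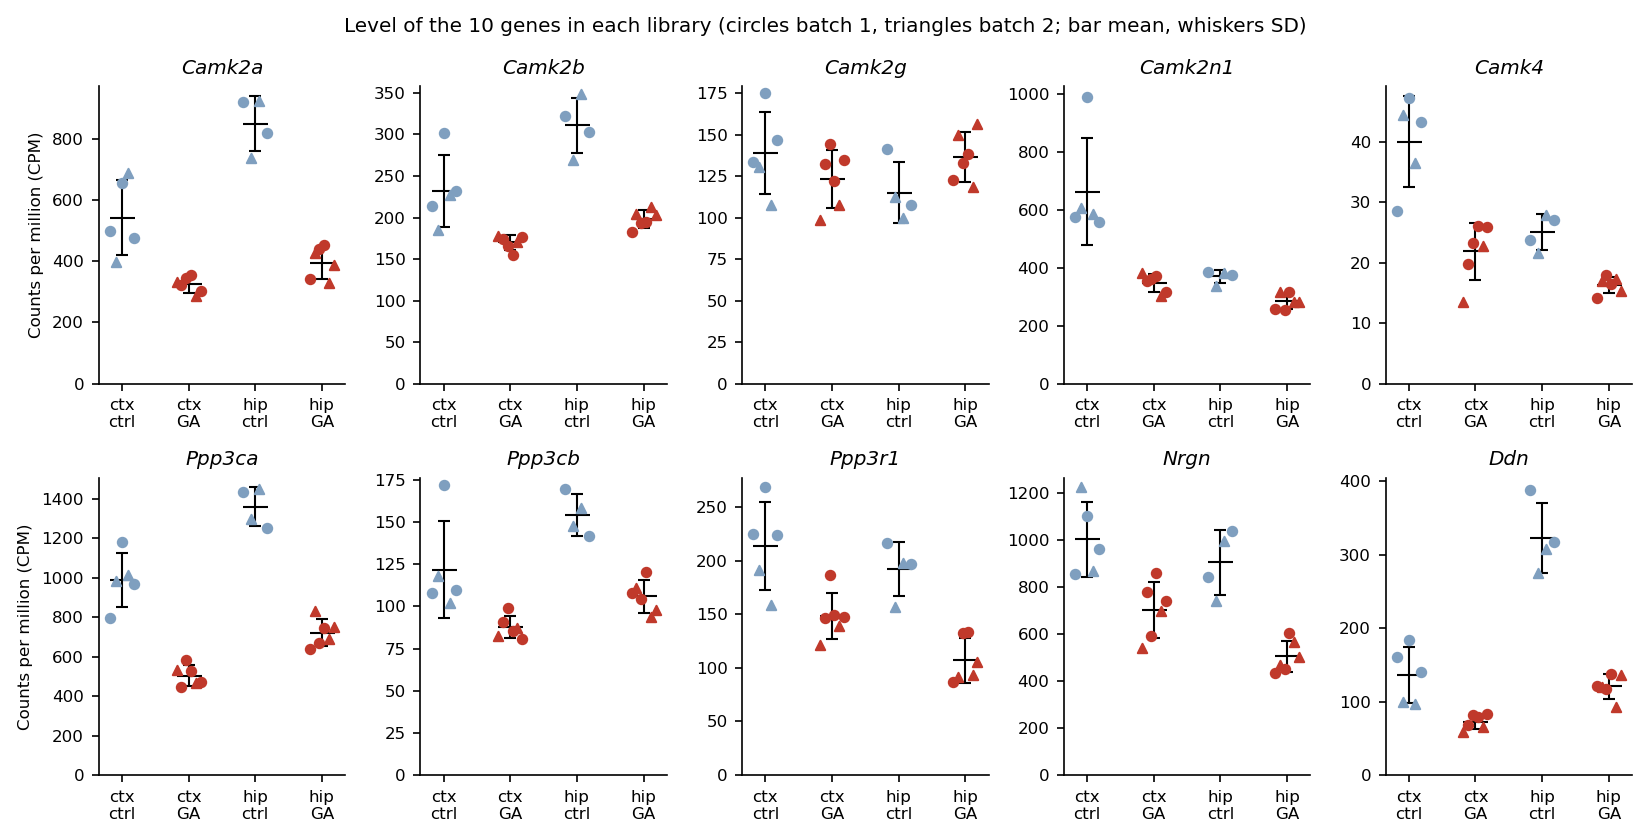
Level of each gene in CPM (vertical axes, each from 0) in the 4 groups of cortex (ctx) and hippocampus (hip), control (ctrl, blue) and GA-Camk2a (GA, red). Each point is 1 library, circles are batch 1 and triangles batch 2, and black bars give the mean with whiskers of 1 SD (n = 5, 6, 4 and 6); Camk2g is the gene whose groups overlap in both tissues.

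The alpha subunit of CaMKII, encoded by Camk2a, is the main subunit of the kinase in forebrain excitatory neurons. Its level in control cortex was 499, 398, 655, 689 and 475 CPM in mice 11, 20, 31, 37 and 38, and in the 6 GA-Camk2a cortices it was 286 to 355 CPM with a median of 328. All 6 transgenic cortices lay below all 5 controls, and the controls were spread over a wider range. Control hippocampus gave 922, 737, 925 and 819 CPM in mice 11, 20, 31 and 37, and GA-Camk2a hippocampus 328 to 452 CPM with a median of 407. No transgenic hippocampus reached the lowest control. The GA-Camk2a mean was 59.7% of the control mean in cortex and 46.5% in hippocampus, log2 fold changes of -0.74 ± 0.11 and -1.15 ± 0.09 (SE). Fitted in batch 1 and in batch 2 alone, cortex gave -0.70 and -0.83, and hippocampus gave -1.12 and -1.19. Whether the Camk2a-Cre driver, which uses regulatory sequence of this gene, has a part in its count was not tested.

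Camk2b encodes the beta subunit, which binds actin in dendritic spines. Control cortex held 214, 184, 302, 227 and 232 CPM in the same order of mice, and GA-Camk2a cortex 155 to 178 CPM with a median of 172. The groups did not overlap, but the gap between the lowest control (mouse 20) and the highest transgenic cortex was small, and mouse 31 stood above the other controls. Control hippocampus held 322, 269.9, 349 and 303 CPM and GA-Camk2a hippocampus 183 to 213 CPM with a median of 199, again without overlap. The log2 fold change was -0.45 ± 0.10 in cortex, -0.56 in batch 1 and -0.25 in batch 2, and -0.35 without control mouse 31. In hippocampus it was -0.69 ± 0.08, with -0.76 and -0.63 in the batches.

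Camk2g, the gamma subunit found in many tissues, did not follow the other subunits. Its level was 134, 131, 176, 108 and 147 CPM in the 5 control cortices and 98.9 to 144 CPM with a median of 127 in GA-Camk2a cortex. In hippocampus it was 141, 112, 99.7 and 107 CPM in controls and 119 to 157 CPM with a median of 136 in GA-Camk2a mice. Control and transgenic libraries overlapped in both tissues. The log2 fold changes were -0.18 ± 0.09 in cortex and 0.20 ± 0.10 in hippocampus, neither of which passed the threshold, and the hippocampal value was 0.05 in batch 1 and 0.34 in batch 2. It was 0.12 without control mouse 31 and 0.30 without control mouse 11. The delta subunit, Camk2d, which is no member, had -0.32 ± 0.11 in cortex (edgeR adjusted p = 0.0523) and -0.03 ± 0.11 in hippocampus (adjusted p = 0.921).

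Camk2n1 encodes an endogenous protein inhibitor of CaMKII. In control cortex the level was 575, 608, 991, 586 and 557 CPM, and in GA-Camk2a cortex 301 to 382 CPM with a median of 358. Mouse 31 lay far above the other 4 controls, and those 4 were still above every transgenic cortex. Control hippocampus, at 386, 338, 382 and 374 CPM, was nearer to GA-Camk2a hippocampus at 253 to 315 CPM with a median of 281, without overlap. The log2 fold change was -0.93 ± 0.12 in cortex, -0.75 without control mouse 31, and -0.43 ± 0.08 in hippocampus. Fitted in batch 1 and in batch 2 alone, cortex gave -1.0 and -0.81, and hippocampus gave -0.50 and -0.36. The related inhibitor gene Camk2n2 gave 0.06 ± 0.11 in cortex and -0.05 ± 0.14 in hippocampus (adjusted p = 0.78 and 0.878, edgeR).

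Camk4 encodes CaMKIV, a mostly nuclear kinase that phosphorylates the transcription factor CREB, and it had the lowest counts of the 10 genes (15 to 156 per library). Its level was 28.6, 44.5, 47.3, 36.5 and 43.2 CPM in control cortex and 13.5 to 26.0 CPM with a median of 23 in GA-Camk2a cortex. The lowest control (mouse 11) was just above the highest transgenic library. In hippocampus, controls had 23.7, 21.6, 27.9 and 27.1 CPM and GA-Camk2a mice 14.2 to 17.9 CPM with a median of 16.7, with no overlap. The log2 fold changes were -0.87 ± 0.15 and -0.64 ± 0.13. Fitted in batch 1 and in batch 2 alone, cortex gave -0.78 and -1.07, and hippocampus gave -0.69 and -0.59. With all libraries thinned to the smallest total, the hippocampal value was -0.36 and no longer passed the threshold.

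Ppp3ca encodes the alpha form of the calcineurin catalytic subunit, the predominant one in brain. Control cortex gave 796, 985, 1179, 1012 and 970.0 CPM and GA-Camk2a cortex 445 to 583 CPM with a median of 499. Every transgenic cortex was below the lowest control, mouse 11, by a wide margin. In hippocampus the controls gave 1433, 1299, 1451 and 1252 CPM and GA-Camk2a mice 641 to 834 CPM with a median of 718, also with a wide gap. The log2 fold change was nearly equal in the tissues, -0.96 ± 0.09 and -0.96 ± 0.07, and the GA-Camk2a mean was 51.0% and 53.1% of control. The 4 within-batch values lay between -1.01 and -0.92.

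Ppp3cb, the beta form of the catalytic subunit, was lower by a smaller amount. Control cortex had 108, 118, 172, 102 and 109 CPM, with mouse 31 far above the rest, and GA-Camk2a cortex had 80.8 to 99.3 CPM with a median of 86.3. The gap between the lowest control and the highest transgenic cortex was narrow. Hippocampus gave 169.9, 147, 158 and 142 CPM in controls and 93.6 to 121 CPM with a median of 106 in GA-Camk2a mice, without overlap. The log2 fold changes were -0.48 ± 0.11 in cortex, or -0.33 without control mouse 31, and -0.58 ± 0.08 in hippocampus. In batch 1 alone the cortex value was -0.54 and the hippocampus value -0.53, and in batch 2 they were -0.35 and -0.66.

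Ppp3r1 encodes the calcium-binding regulatory B subunit. Its level was 225, 192, 269, 158 and 224 CPM in control cortex and 121 to 186 CPM with a median of 147 in GA-Camk2a cortex. Control mouse 37 lay below the highest transgenic cortex (mouse 30), so the groups overlapped. In hippocampus, 216, 157, 198 and 197 CPM in controls stood above 86.8 to 134 CPM with a median of 99.2 in GA-Camk2a mice. The log2 fold change was -0.53 ± 0.10 in cortex and -0.88 ± 0.11 in hippocampus, with -0.60 and -0.41 in the cortex batches and -0.85 and -0.92 in those of hippocampus.

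Nrgn encodes neurogranin, the postsynaptic protein that binds calmodulin while calcium is low. Control cortex gave 855, 1225, 1101, 865 and 963 CPM and GA-Camk2a cortex 538 to 859 CPM with a median of 719.8. The lowest control (mouse 11) was just under the highest transgenic library (mouse 34). Control hippocampus gave 844, 739.8, 996 and 1039 CPM and GA-Camk2a hippocampus 436 to 604 CPM with a median of 484, and there the groups were apart. The log2 fold change was -0.51 ± 0.12 in cortex, -0.38 in batch 1 and -0.75 in batch 2. In hippocampus it was -0.88 ± 0.11, with -0.97 and -0.81.

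Ddn encodes dendrin, a protein of dendrites and the postsynaptic side whose mRNA is carried into dendrites. It is a member by its symbol, and its binding to calmodulin was not measured here. Control cortex held 161, 99.9, 184, 97.2 and 139.9 CPM and GA-Camk2a cortex 58.4 to 83.6 CPM with a median of 73.4. The 2 controls of batch 2 (mice 20 and 37) were the lowest and still above all transgenic cortices. In hippocampus the controls held 388, 275, 308 and 317 CPM and GA-Camk2a mice 92.0 to 137 CPM with a median of 120.3, the lowest share of control among the 10 genes at 37.5%. The log2 fold change was -0.91 ± 0.11 in cortex and -1.46 ± 0.09 in hippocampus. Fitted in batch 1 and in batch 2 alone, cortex gave -1.04 and -0.65, and hippocampus gave -1.53 and -1.39.

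Counting groups that did not overlap in CPM, 7 of 10 genes were lower in GA-Camk2a cortex (Camk2g, Ppp3r1 and Nrgn overlapped), where 2.67% of all genes tested were lower without overlap. In hippocampus 9 of 10 were, where 4.02% of all genes were. None was higher without overlap, which 3.5% of all genes were in cortex and 5.6% in hippocampus. The genes were chosen with these levels known, and nothing is read from these counts either. The batch of the libraries was not used to choose the genes and could be tested. Only Ddn in cortex differed between batches, by -0.46 ± 0.11 (batch 2 minus batch 1, edgeR adjusted p = 0.0285), where 2.54% of all genes passed (1.18% lower and 1.36% higher in batch 2). None of the 10 differed between the batches of the hippocampus, the lowest adjusted p being 0.538 for Ppp3r1 (edgeR), where 1.6% of all genes passed.

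**Figure D2:**
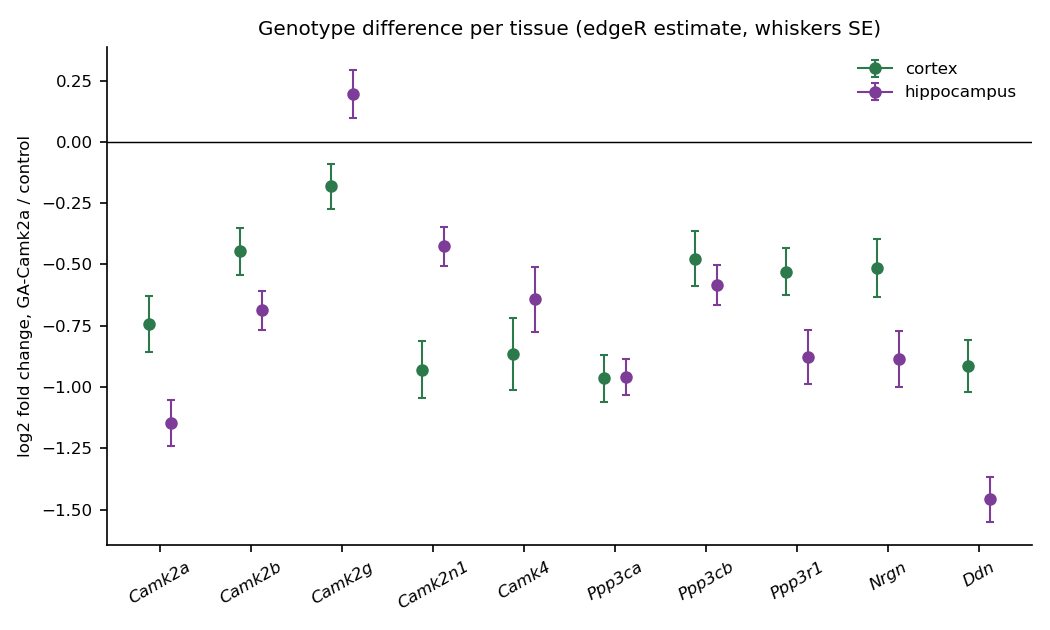
Genotype difference of the 10 genes as log2 fold change of GA-Camk2a over control (vertical axis) in cortex (green) and hippocampus (purple), edgeR estimates with whiskers of 1 SE. All points but those of Camk2g lie between -0.43 and -1.46, and the hippocampal point is the lower one for Camk2a, Camk2b, Ppp3cb, Ppp3r1, Nrgn and Ddn.

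No difference between the tissues in the genotype difference passed the edgeR test for any of the 10 genes. Hippocampus minus cortex, the difference between the log2 fold changes was -0.57 ± 0.15 (SE) for Ddn, -0.42 ± 0.16 for Camk2a, -0.39 ± 0.18 for Nrgn, -0.37 ± 0.15 for Ppp3r1 and -0.26 ± 0.12 for Camk2b, each lower in hippocampus. For Camk2n1 it was 0.48 ± 0.15 and for Camk2g 0.35 ± 0.14, in the other direction. For Ppp3ca, Ppp3cb and Camk4 it was near or below its SE, at -0.01 ± 0.12, -0.13 ± 0.14 and 0.20 ± 0.20. With 1 library left out, Camk2b ran from -0.32 to -0.17 (without the hippocampus of control mouse 31), Ppp3ca from -0.04 to 0.07, Ppp3cb from -0.22 to -0.06 and Camk4 from 0.15 to 0.31. The threshold of this contrast was passed by 0 of 10, and by 0.4% of all genes (0.251% lower and 0.149% higher in hippocampus), and Ddn passed in limma-voom with the mouse as a replicate block (-0.58). These differences rest on the same libraries as the genotype differences above, whose levels were known when the genes were chosen. Nothing is read from the calls.

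Between tissues, the genes divided into those higher and those lower in hippocampus. In control mice, Ddn was higher in hippocampus than in cortex by 1.24 ± 0.11 (log2, SE), Camk2a by 0.60 ± 0.12, Ppp3ca by 0.40 ± 0.09, Camk2b by 0.37 ± 0.09 and Ppp3cb by 0.30 ± 0.10. Camk2n1 differed by -0.88 ± 0.11, Camk4 by -0.74 ± 0.14 and Camk2g by -0.30 ± 0.10, all lower in hippocampus. Ppp3r1 (-0.17 ± 0.11) and Nrgn (-0.20 ± 0.13) did not pass the threshold, and the value of Nrgn was -0.08 without the cortex of control mouse 20. Thus 5 were called higher, where 9.88% of all genes were, and 3 lower, where 8.48% were. Nothing is read from these counts or those that follow, since the genes were chosen with the levels of these groups known. Without overlap of the libraries, Camk2a, Ppp3ca and Ddn were higher (3 of 10, against 8.2% of all genes) and Camk2n1 and Camk4 lower (2 of 10, against 5.43%). With the mouse as a replicate block in edgeR the calls of Ppp3cb (0.27) and Camk2g (-0.30) were lost, as they were with no batch term and with thinned counts, and those of Camk2g held in 5 and of Ppp3cb in 13 of the 21 fits that left out 1 library.

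In GA-Camk2a mice the same contrast gave 0.67 ± 0.10 for Ddn, 0.39 ± 0.08 for Ppp3ca and 0.18 ± 0.11 for Camk2a. Of these, Ddn and Ppp3ca were called higher in hippocampus (2 of 10, where 17.4% of all genes were), and Camk2a was not called. Called lower were Nrgn (-0.59 ± 0.12), Camk4 (-0.54 ± 0.14), Ppp3r1 (-0.54 ± 0.10) and Camk2n1 (-0.40 ± 0.10), 4 of 10, where 18% of all genes were. Without overlap, Camk2b, Ppp3ca and Ddn were higher (3 of 10, against 9.27% of all genes) and none was lower (against 3.15%). For the same reason nothing is read from these counts. The other values were 0.18 ± 0.09 for Ppp3cb, 0.11 ± 0.08 for Camk2b and 0.05 ± 0.09 for Camk2g. Of these, Ppp3cb was called with thinned counts (0.32) and in 1 of 21 fits that left out 1 library, and Camk2g was 0.12 without the hippocampus of GA-Camk2a mouse 16.

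The 10 mice that gave both tissues allow a comparison inside each animal, on log2 CPM without the scaling factors and batch term of the fits. In mice 16, 23, 31, 37 and 41 the tissues were in different batches, so that batch and tissue cannot be told apart within each of them. The difference of Ddn was 0.74 in control mouse 31 and 1.70 in control mouse 37, whose tissues lay in opposite batches. Ddn, Camk2a, Camk2b and Ppp3ca were higher in hippocampus in 4 of 4 control and 6 of 6 GA-Camk2a mice. The mean difference of Ddn was 1.29 ± 0.41 (SD, n = 4) in controls and 0.73 ± 0.21 (n = 6) in GA-Camk2a mice, and that of Camk2a 0.63 ± 0.31 and 0.28 ± 0.14. Camk2n1 was lower in hippocampus in all 10 of these mice, with mean differences of -0.86 ± 0.36 in controls and -0.29 ± 0.20 in GA-Camk2a mice. Nrgn and Ppp3r1 were lower in hippocampus in 6 of 6 GA-Camk2a mice, and each was higher there in 1 of 4 controls. Ppp3cb was higher in hippocampus in 6 of 6 GA-Camk2a mice and in 3 of 4 controls. Camk2g was higher in hippocampus in 5 of 6 GA-Camk2a mice and in 1 of 4 controls. Camk4 was higher there in 1 of 6 GA-Camk2a mice (mouse 16, by 0.07) and in 0 of 4 controls.

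**Figure D3:**
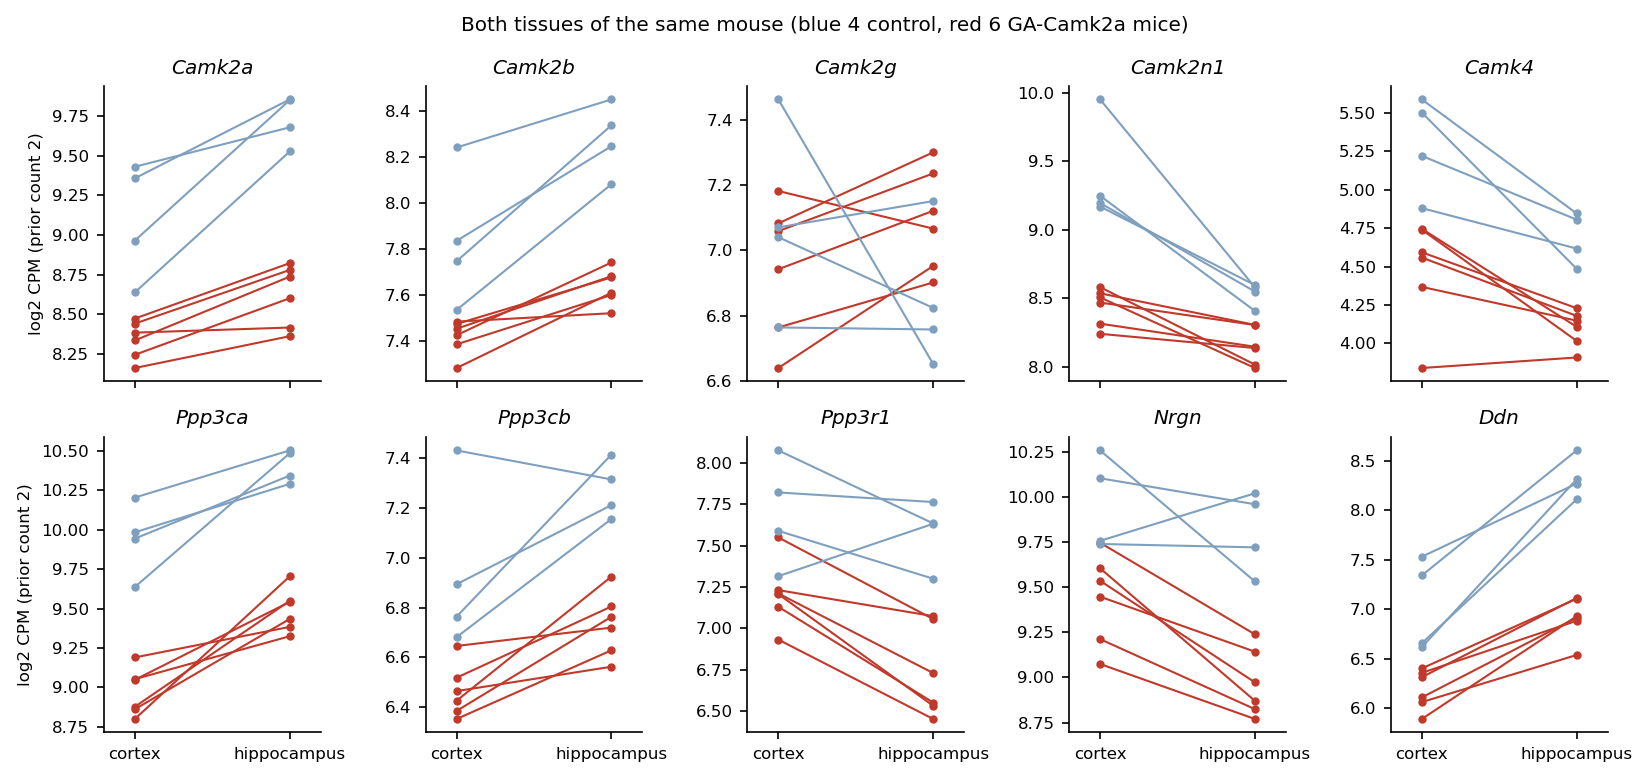
Level in cortex and hippocampus of the same mouse (log2 CPM with a prior count of 2, vertical axes differ between genes and do not start at 0), 1 line per mouse, 4 control mice in blue and 6 GA-Camk2a mice in red. Lines of Ddn, Camk2a, Camk2b and Ppp3ca rise to hippocampus in all 10 mice and those of Camk2n1 fall in all 10.

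Ordered by mean CPM over the 4 groups, Camk2a, Camk2b, Ppp3ca, Ppp3cb and Ddn shared 1 order: GA-Camk2a cortex was lowest, then GA-Camk2a hippocampus, then control cortex, and control hippocampus was highest. In that order GA-Camk2a hippocampus and control cortex overlapped for all 5 genes. Control hippocampus stood clear of control cortex for Camk2a, Ppp3ca and Ddn and overlapped it for Camk2b and Ppp3cb. The lowest pair, the GA-Camk2a tissues, was apart for Camk2b, Ppp3ca and Ddn and overlapped for Camk2a and Ppp3cb. Camk2n1, Camk4, Ppp3r1 and Nrgn shared another order, from GA-Camk2a hippocampus through GA-Camk2a cortex and control hippocampus to control cortex. Of its neighbours, only control hippocampus and control cortex were apart, for Camk2n1 and Camk4. The order for Camk2g was control hippocampus, GA-Camk2a cortex, GA-Camk2a hippocampus and control cortex, and all neighbours overlapped.

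Across the 21 libraries, with log2 CPM centred on the mean of the tissue, each gene but Camk2g correlated with the mean of the other 9 with a Pearson r of 0.84 (Nrgn) to 0.94 (Ppp3ca), and Camk2g with 0.08. Libraries of 1 genotype share its difference, which enters these values, and pairs of libraries share a mouse. Centred on the mean of each of the 4 groups instead, r ran from 0.30 (Nrgn) to 0.76 (Ppp3cb), and Camk2g was at 0.67. Of 5017 genes with a mean of at least 5 log2 CPM, those most like the mean of the 10 genes over the 21 tissue-centred libraries were Kif5a (r = 0.972), a neuronal kinesin motor, Rasgrp1 (0.965), an exchange factor for Ras, Trim37 (0.963), a ubiquitin ligase, Camkk2 (0.956), a kinase that activates CaM kinases, and Rapgef4 (0.955), a cAMP-activated exchange factor. Most like Camk2a alone were Enc1 (r = 0.929), Wipf3 (0.922), Rasgrp1 (0.922), Unc13a (0.916), a priming factor of synaptic vesicles, and Plppr4 (0.915).

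Other genes of the pathway were read from 4 lists of 39 genes, none of them a member, of which 36 were tested and Ppp3r2, Nfatc1 and Nfatc4 were under the filter. By edgeR with p-values adjusted over all genes, 8 were lower in GA-Camk2a cortex and 11 in GA-Camk2a hippocampus, and none was higher in either tissue. Over all genes tested, 6.17% were lower in cortex and 5.97% in hippocampus. The lists were chosen with earlier results of these data known, and nothing is read from their counts against these shares. The median log2 fold change of the 36 was -0.14 in cortex and -0.18 in hippocampus, against -0.01 and 0.02 over all genes.

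Calm2, which encodes calmodulin, was lower in hippocampus (-0.36 ± 0.08, adjusted p = 0.00993) and at the threshold in cortex (-0.29 ± 0.10, adjusted p = 0.0464), where the call was lost in 9 of 11 fits that left out 1 library (adjusted p of 0.0772 to 0.118). It held only without GA-Camk2a mouse 30 or control mouse 31. Calm3 was lower in hippocampus (-0.36 ± 0.08, adjusted p = 0.00767) and gave -0.16 ± 0.08 in cortex (adjusted p = 0.224).

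Of the small calmodulin binders, Pcp4, which speeds calcium exchange of calmodulin, differed by -0.91 ± 0.10 in cortex (adjusted p = 2.4e-06, edgeR), from 1046 ± 151 to 543 ± 69.8 CPM, and by -0.23 ± 0.12 in hippocampus (adjusted p = 0.232). Its relative Pcp4l1 gave -0.44 ± 0.10 in cortex (adjusted p = 0.00535) and 0.20 ± 0.18 in hippocampus (adjusted p = 0.551). With 1 library left out, the hippocampal values, neither of them called, ran from -0.32 to -0.06 for Pcp4 and from 0.07 to 0.32 for Pcp4l1. Gap43, the growth-cone relative of neurogranin, was not called in either tissue. The calmodulin-binding transcription activator genes were both lower in hippocampus, Camta2 at -0.93 ± 0.12 (adjusted p = 0.000131) and Camta1 at -0.38 ± 0.08 (adjusted p = 0.00757). In cortex Camta1 was lower at -0.44 ± 0.10 (adjusted p = 0.00434) and Camta2, at -0.30 ± 0.12, was not called (adjusted p = 0.106). In all, 4 of 7 genes of this list were lower in each tissue.

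Among 12 genes of the CaM kinase cascade, 3 were lower in cortex and 5 in hippocampus. Camkk2, the upstream kinase of CaMKI and CaMKIV, had 133, 139.9, 202, 122 and 138 CPM in the control cortices of mice 11, 20, 31, 37 and 38 and 63.8 to 77.7 CPM with a median of 67.6 in GA-Camk2a cortex. Mouse 31 was again the highest control, and the groups were far apart. The difference was -1.08 ± 0.11 in cortex (edgeR adjusted p = 5.65e-07) and -0.90 ± 0.11 in hippocampus (adjusted p = 0.000105). Camk1d, a CaMKI form, differed by -0.61 ± 0.13 and -0.72 ± 0.12 (adjusted p = 0.00239 and 0.000991). Ppm1e, a phosphatase that switches CaM kinases off, differed by -0.49 ± 0.11 and -0.67 ± 0.10 (adjusted p = 0.00461 and 0.000499). Camkv, a kinase-like protein of synapses, was lower in hippocampus (-0.65 ± 0.10, adjusted p = 0.00089) and gave -0.05 ± 0.10 in cortex, and the difference between the tissues missed the threshold (adjusted p = 0.0505). Camkk1 was called in hippocampus at -0.38 ± 0.11 (adjusted p = 0.0421), a call that held in 3 of 10 fits that left out 1 library (those without GA-Camk2a mouse 16, 30 or 34) and gave an adjusted p of 0.0554 to 0.105 in the other 7.

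The list of calcineurin regulators, partners and NFAT genes leaves out the subunits Ppp3ca, Ppp3cb and Ppp3r1, which are described above. Of its 11 genes tested, 1 was lower in each tissue and it was Akap5, the anchor that holds calcineurin and protein kinase A at the synapse. The difference of Akap5 in hippocampus was -0.57 ± 0.11 (edgeR adjusted p = 0.0039), from 360.3 ± 33.7 to 249.8 ± 41.2 CPM. In cortex it was -0.68 ± 0.22 (adjusted p = 0.0443), but there its level differed between batches far more than between genotypes. The 7 cortex libraries of batch 1 had 1108 to 5443 CPM and the 4 of batch 2 had 361 to 784 CPM (batch 2 minus batch 1, -2.62 ± 0.26, adjusted p = 2.78e-07), while all 10 hippocampus libraries lay between 205 and 401 CPM. The cortex call held in 4 of 11 fits that left out 1 library, those without GA-Camk2a mouse 23, 34, 35 or 41, and gave an adjusted p of 0.0624 to 0.1097 in the other 7. The third catalytic form, Ppp3cc, gave 0.09 ± 0.29 in cortex and -0.10 ± 0.24 in hippocampus (adjusted p = 0.893 and 0.862). Rcan1, a calcineurin inhibitor whose gene is a target of NFAT, gave -0.03 ± 0.16 and -0.24 ± 0.14, and Rcan3 gave 0.44 ± 0.19 and 0.59 ± 0.20 (adjusted p = 0.148 and 0.0726). Of 6 genes of the CREB branch, 1 was lower, Crtc1 in hippocampus, a CREB coactivator that calcineurin releases to the nucleus (-0.49 ± 0.10, adjusted p = 0.00636). That call was lost with thinned counts (-0.29) and in each batch alone. None of the 36 genes differed in its genotype difference between the tissues, the lowest adjusted p after Camkv being 0.0665 for Pcp4 and 0.0774 for Camta2.

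**Figure D4:**
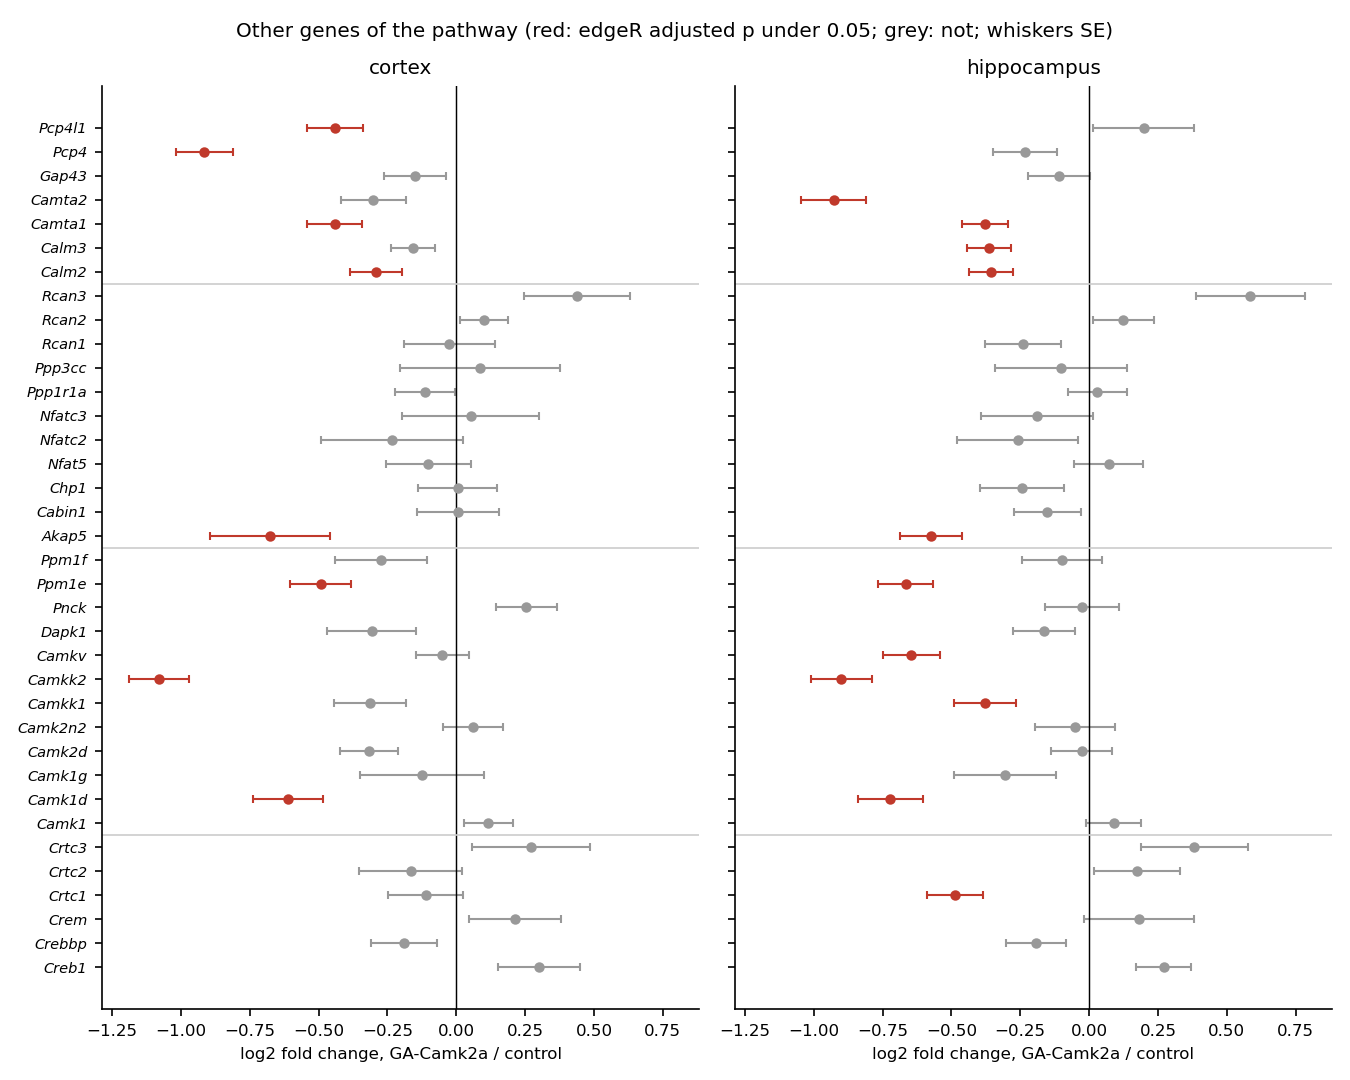
Genotype difference of the 36 other pathway genes tested, as log2 fold change of GA-Camk2a over control (horizontal axes) with whiskers of 1 SE, in cortex (left) and hippocampus (right). Red marks an adjusted p under 0.05 (8 and 11 genes, all lower), grey the others, and lines divide, from top to bottom, calmodulin with small binders, calcineurin with its regulators, the CaM kinase cascade and the CREB branch.

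Marker lists of cell types were summed in every library. Of 4 markers of excitatory neurons (Slc17a7, Neurod2, Neurod6 and Tbr1), 2 were lower in cortex and 3 in hippocampus by edgeR. Their summed level was 386 to 609 CPM in control and 336 to 511 CPM in GA-Camk2a cortex, which overlapped, and 586 to 723 and 307 to 427 CPM in hippocampus, which did not. Of 5 markers of all neurons, 2 were lower in cortex and 5 in hippocampus, with sums of 3569 to 4332 and 2698 to 3013 CPM in cortex and 3052 to 3443 and 2046 to 2682 CPM in hippocampus (control and GA-Camk2a). Of the 5 markers of hippocampus, Spink8 and Fibcd1 were lower in GA-Camk2a hippocampus, by -1.57 ± 0.13 (adjusted p = 6.69e-06) and -1.05 ± 0.23 (adjusted p = 0.007, edgeR), with list sums of 589 to 734 CPM in controls and 563 to 775 CPM in GA-Camk2a mice that overlapped. Of 6 markers of inhibitory neurons, none was lower, and 1 was higher in cortex and 2 in hippocampus. Their sums were 985 to 1058 CPM in control and 1095 to 1473 CPM in GA-Camk2a cortex, higher without overlap. In hippocampus they were 794 to 911 and 726 to 1155 CPM, which overlapped. Of 5 astrocyte markers 4 were higher in cortex and 5 in hippocampus, with sums of 1271 to 1644 and 2314 to 3366 CPM in cortex and 1460.1 to 1815 and 2856 to 3861 CPM in hippocampus. Of 6 microglia markers 4 were higher in each tissue, with sums of 119.9 to 138 and 159 to 222 CPM in cortex and 128 to 147 and 167 to 246 CPM in hippocampus. None of 5 oligodendrocyte, 3 oligodendrocyte precursor and 3 endothelial markers passed in either tissue.

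Markers of striatum, a neighbour of the dissected cortex whose projection neurons also use several of these genes, were counted for the same reason. In cortex 6 of 6 (Drd1, Drd2, Adora2a, Penk, Ppp1r1b and Rgs9) were lower in GA-Camk2a mice, with sums of 753 to 1258 CPM in controls and 225 to 524 CPM in GA-Camk2a mice and no overlap. In hippocampus 0 of 3 tested were, with sums of 147 to 193 and 147 to 249 CPM, and Drd1, Drd2 and Adora2a were under the filter there. The count of Drd2 was 0 in the lowest GA-Camk2a cortex, and no marker was at 0 in a whole group. The part that the share of any of these cells has in the differences of the 10 genes was not tested.

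**Figure D5:**
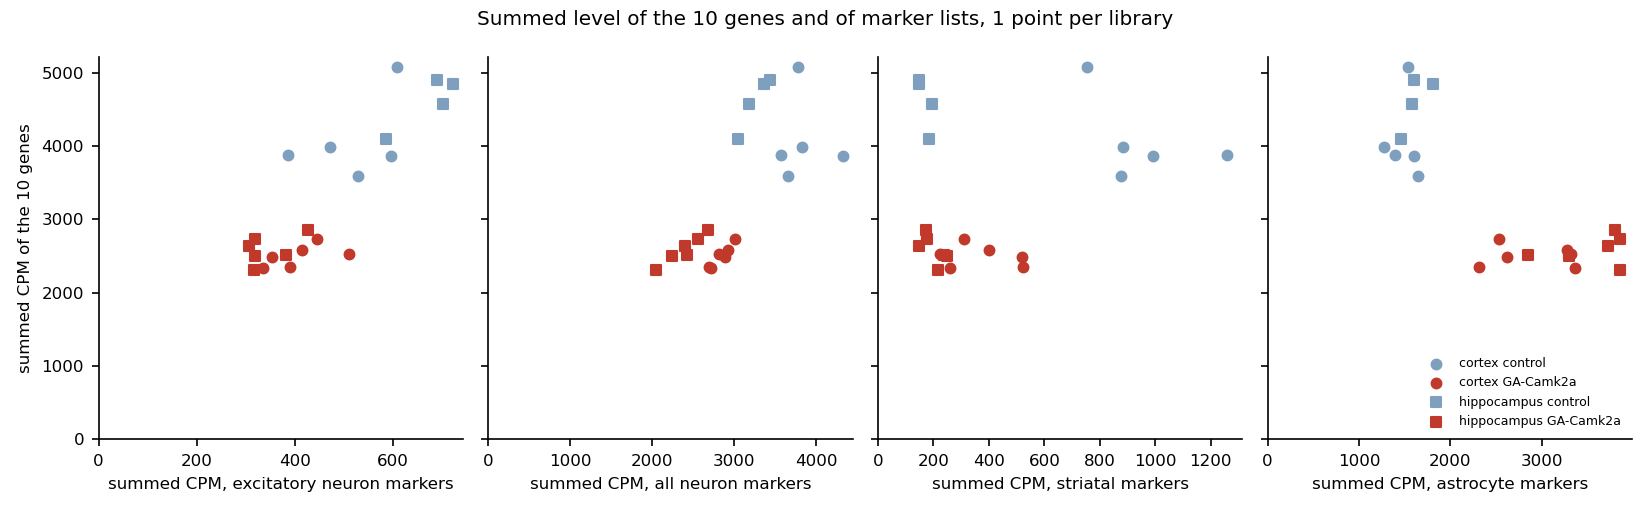
Summed CPM of the 10 genes (vertical axis) against summed CPM of markers of excitatory neurons, all neurons, striatum and astrocytes (horizontal axes), 1 point per library, control blue and GA-Camk2a red, cortex circles and hippocampus squares. The GA-Camk2a libraries lie between 2310.2 and 2857 CPM for the 10 genes, below all control libraries, and in the striatal panel all hippocampus points lie between 147 and 249 CPM.

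Some counts may hold reads of neighbours. In the GENCODE annotation Ddn, Ppp3cb and Camk4 overlap a gene on the opposite strand (B130046B21Rik, 1810062O18Rik and 2310026I22Rik), Ppp3r1 overlaps Wdr92 on the same strand, and Camk2a and Ppp3ca hold or overlap small or unclassified genes. Whether the counting used strand is not given in the sources used here, so counts of these genes are uncertain to that extent.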

How the data were processed

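Cortex and hippocampus of 11 mice gave 21 prime-seq libraries. The deposited table holds the counts per gene and library that the authors made from reads aligned to GRCm39 with zUMIs, and the submitters' processing notes name FastQC 0.11.8, cutadapt 1.12, STAR and DESeq2 1.44. Whether counts are molecules or reads, the annotation and the use of strand are not given in the sources used here. The GFP row was left out of totals and tests.

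Groups came from the labels, and batch is the labels' batch (batch 1 held 3 control and 4 transgenic cortices and 2 and 3 hippocampi, batch 2 held 2 and 2 cortices and 2 and 3 hippocampi). Total counts of 1048201 to 5888102 (median 1975173) set the precision. Genes were kept by filterByExpr with a minimum count of 10, scaled by TMM and fitted per tissue with edgeR 4.0.16's quasi-likelihood test, genotype and batch as terms, in R 4.3.3, and all 21 libraries together gave the tissue contrasts and the difference between genotype effects. P-values were Benjamini-Hochberg adjusted over all genes. The SE of an edgeR value is its absolute log2 fold change divided by the square root of the F statistic of the same test. The script was tested on simulated counts. Figures used Python 3.11.15, pandas 2.3.3 and matplotlib 3.10.9.

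The members and lists were chosen with earlier results of these data known, and some genes of the lists are not reported here and were left out of their counts and sums. Named were the 10 members, every pathway gene with an adjusted p under 0.05 in a tissue, the untested ones, and the 5 genes most correlated with the members' mean and with Camk2a. Camk2d, Camk2n2, Gap43, Ppp3cc, Rcan1 and Rcan3 fall outside that rule and were named after their values were seen. Symbols covered 43308 of 64361 genes and 96.1% of counts.

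Same-numbered libraries are tissues of 1 mouse by the labels, so that the mouse pairs them across tissues. Their deviations from the group means, with batch not removed, correlated by -0.23 to 0.29, and 3 of 10 mice matched best with their own. The values were 0.14 to 0.29 in mice 11, 20, 30, 34 and 35, whose tissues shared a batch. They were -0.23 to -0.07 in mice 16, 23, 31, 37 and 41, whose tissues did not. Batch therefore enters these values, and they do not check the pairing. No 2 libraries were identical, and all 46 pairs within groups differed by more than counting noise (chi-square over degrees of freedom of 2.10 to 15.1). Alternatives were DESeq2 1.42.0, RLE and upper quartile scaling, no filter or a minimum count of 50, no batch term, single batches, thinned counts, limma-voom (limma 3.58.1), replicate blocks and leaving out each library. A sex term, with sex read from Xist and Ddx3y, was added after seeing the data.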

Additional observations from a re-analysis of the deposited data

Results flagged for a closer look

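Of 132 groups of 4 to 6 libraries examined (each of the 10 genes, the 13 other pathway genes called in a tissue and the 10 marker sums), 10 held a library far from the others, and chance gives about 1 in 20. Control mouse 31 supplied 5 of them in cortex: it was highest for Camk2n1 at 991 CPM, Ppp3cb at 172 CPM, Camkk1 at 64.9 CPM and Camkk2 at 202 CPM, and lowest for Pcp4l1 at 188 CPM. Calm2 was highest in the GA-Camk2a cortex of mouse 30 at 3599.6 CPM, and Camta1 in the control hippocampus of mouse 11 at 219 CPM. The summed inhibitory markers were highest in the GA-Camk2a cortex of mouse 41 at 1473 CPM. Summed hippocampus markers were lowest in the GA-Camk2a cortex of mouse 35 at 94.4 CPM and highest in the GA-Camk2a hippocampus of mouse 23 at 775 CPM.

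None of the 10 genes had a genotype difference that differed between tissues by the edgeR test, and Ddn passed in limma-voom with the mouse as a replicate block (-0.58). Nothing is read from this, since the genes were chosen with these levels known. By the edgeR test 7 markers differed (hippocampus minus cortex, log2). Among striatal markers the difference was 2.19 for Adora2a (adjusted p = 0.0337), 1.71 for Rgs9 (adjusted p = 0.00474), 1.55 for Ppp1r1b (adjusted p = 0.0337) and 1.34 for Penk (adjusted p = 0.0423), each lower in GA-Camk2a cortex. The hippocampal libraries held only 2 to 11 counts of Adora2a each, under the filter of the fit in that tissue, and the size of its difference is uncertain. Among markers of excitatory neurons it was -1.23 for Neurod6 (adjusted p = 0.0271) and -0.60 for Slc17a7 (adjusted p = 0.0389). The hippocampus marker Spink8 gave -1.83 (adjusted p = 0.000798).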

How the results depend on the processing

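No value changed direction while called, and the genotype calls of the 9 genes held in every fit that left out 1 library, with a median log2 fold change of the 10 genes of -0.67 to -0.59 in cortex and -0.85 to -0.74 in hippocampus. The genes were chosen with the levels of these libraries known, so calls that held are no further support for the differences. Calls were lost in single batches, where cortex batch 2 alone kept 4 of 9 and hippocampus batch 1 alone kept 5, and for Camk4 in hippocampus with thinned counts. In cortex, 1635 genes in all were called, 876 in batch 1 alone, 230 in batch 2 alone, 1067 with thinned counts, and 1038 (without control mouse 31) to 1526 with 1 library left out; of the other pathway genes 4 and 2 were called in the batches in place of 8. In hippocampus, 1628 were called, 115 and 681 in the batches, 901 with thinned counts, and 1038 (without control mouse 31; 1082 without control mouse 20) to 1831 with 1 library left out; of the pathway genes 2 and 7 were called in place of 11. Fewer libraries and fewer counts enter these fits by construction. Thinned counts called 1522 genes between control tissues in place of 2709. The difference between genotype effects was called for 59 genes, 36 with no batch term, 24 with thinned counts and 22 (without the hippocampus of control mouse 31) to 66 with 1 library left out; the cause was not tested.

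With the mouse as a replicate block, the pairing gave 137 calls of that difference in limma-voom. Between tissues it gave 3218 (limma-voom) and 1961 (edgeR) in controls, and 5883 and 4312 against 5211 in GA-Camk2a mice. Among the 10 genes it changed the calls of Camk2g, Ppp3cb and Ddn given above.

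The 2 to 4 libraries per genotype in a single batch limit the within-batch values. Sex and control alleles are not in the labels.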
